A study of Mus musculus with 83 samples.

Results

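The replication-dependent histone genes encode the H1, H2A, H2B, H3 and H4 proteins that package newly made DNA. They were taken as every gene whose symbol is H1f followed by 1 to 5, or H2ac, H2bc, H3c or H4c followed by a number. Of the 27752 genes in the tables that cover all libraries, 56 matched: 5 H1, 15 H2A, 14 H2B, 12 H3 and 10 H4 genes. On the mm10 (GRCm38) build, 46 of them lie on chromosome 13 between positions 21715763 and 23934851, and the other 10 on chromosome 3 between positions 96219865 and 96270132. A further 12 histone genes with other names (Hist1h2bp, H4f16 and the like) stand in the same tables and were outside the rule.

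These genes are short, mostly lack introns and are transcribed by RNA polymerase II (Pol II) in bursts tied to S phase. Their mRNAs end in a stem-loop instead of a poly(A) tail, and their transcription and 3′ processing take place in histone locus bodies built around NPAT. H2A and H2B genes often share a divergent promoter with an octamer bound by OCT1, H4 promoters carry an element bound by HINFP, and many histone promoters carry a TATA box, the sequence bound by the TATA-box binding protein (TBP). Embryonic stem cells divide fast with a short G1 phase, so a large share of an unsynchronised culture is replicating its DNA.

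The study mapped Pol II by CUT&Tag, where Tn5 transposase is tethered by antibody and tags the DNA next to the protein of interest, in mouse embryonic stem cells (mESCs) in which TBP can be degraded. All cells descend from JM8.N4 mESCs and carry, homozygously, the minimal auxin-inducible degron on TBP (mAID-TBP). Line C64 also carries a HaloTag at the C-terminus of the largest subunit of Pol II. In all lines the replication-independent histone H3.3 has a GFP tag. B8 is a single Tbpl1 knock-out clone made from C64, and so lacks TRF2, the TBP paralog. The 12 groups are listed by line and by run, as the sample titles number it. In run 2, C64 cells received heat shock (HS, 42°C for 30 min) after 6 h of 500 µM indole-3-acetic acid (IAA, which triggers TBP degradation), HS alone, IAA alone for 6 h, or neither (control). In run 3, C64 cells received retinoic acid (RA, 16 h, 25 µM per the sample labels) with IAA for 16 h, RA alone, IAA alone for 16 h, or neither. The methods text of the study gives a lower RA concentration than the labels. B8 cells received IAA for 6 h or none (control), in run 6 and again in run 8. The labels call the controls untreated, whereas the text of the study describes DMSO, the vehicle, as its control. Each group has 2 libraries, 24 in all. The study calls them biological replicates without saying in the labels whether they came from separate cultures, and the p-values measure the spread between these libraries.

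Reads in genes numbered 3854622 to 5056322 in the C64 libraries, 900651 to 1157308 in B8 run 6 and 2330887 to 2523832 in B8 run 8. The 56 histone genes took 17321 reads over the 24 libraries together, a median of 10 reads per gene and library. Tbpl1, removed in B8, had at most 4.37 CPM (read counts scaled to a common library size) in B8, against 6.23 to 16.0 CPM in C64. Tbp itself stood at 21.8 to 51.1 CPM everywhere, and since the degron acts on the protein this gene does not check the treatment. The stem cell markers Esrrb (205 to 1243 CPM) and Tfcp2l1 (160 to 1184 CPM) had high CPM in every library, Pou5f1 (2.97 to 20.6 CPM) and Nanog (4.93 to 17.9 CPM) had low CPM, and Sox2 was listed at 0 throughout. These CPM are not divided by gene length, so they do not rank Pol II density between markers. Whether markers lost reads to overlapping genes was not examined. The 10 stem cell markers summed to 437 to 2425 CPM and 16 markers of other cell types to 557 to 918 CPM, with Sox1 at 0. One library stood apart: the second B8 control of run 6, where 1.62% of reads fell in the 4057 other genes under 2 kb, against 0.75% to 1.02% elsewhere. It also held the highest level of 28 of the 56 histone genes, so sums and tests that rest on it are given with and without it. Its part in those results was not tested.

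Of the 56 genes, 50 had reads of their own. The other 6 (H2ac18, H2ac19, H2bc18, H3c13, H3c14 and H4c2) were at 0 in all 24 libraries, and each lies wholly within another annotated gene, where the counting assigned no read to either gene. In all, 21 members share bases with another gene, and the near-identical coding sequences of the copies can also lose or split reads, so levels of single copies are uncertain. Strand was not used in the counting.

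The sequences before the annotated starts show the elements for which these promoters are known. Exact matches on either strand were sought in the 250 bases before each gene's start in the GRCm38.p6 assembly, for the 56 members and for 27582 genes in all. TATAAA was found at 29 of 56 members and 12.8% of all genes, and CCAAT at 46 of 56 and 34.8% of all genes. The octamer ATTTGCAT was found at 8 of 14 H2B and 7 of 15 H2A genes and at no H1, H3 or H4 gene, against 2.28% of all genes. GGTCCG, from the H4 element bound by HINFP, was found at 9 of 10 H4 genes and 6.80% of all genes, and AAACACA, the H1 box, at 3 of 5 H1 genes and 6.45% of all genes. A match is a description of letters, not evidence of binding, and a missing match says nothing of the factor.

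The 6 genes below are those with the largest levels or the smallest p-values in what follows. Each line runs 5′ to 3′ on the strand of the gene and covers the bases from 120 to 21 before the annotated start, with exact motif matches in capitals.
H4c11 (chr13:21734944-21735043, + strand): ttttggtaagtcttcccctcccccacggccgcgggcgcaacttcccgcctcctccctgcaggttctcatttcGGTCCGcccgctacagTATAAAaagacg
H4c9 (chr13:22041383-22041482, - strand): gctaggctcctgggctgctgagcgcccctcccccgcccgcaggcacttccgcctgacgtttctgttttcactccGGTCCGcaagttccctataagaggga
H2bc11 (chr13:22043094-22043193, + strand): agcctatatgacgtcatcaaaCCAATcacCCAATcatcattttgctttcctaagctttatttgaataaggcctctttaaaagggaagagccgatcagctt
H2bc4 (chr13:23684079-23684178, + strand): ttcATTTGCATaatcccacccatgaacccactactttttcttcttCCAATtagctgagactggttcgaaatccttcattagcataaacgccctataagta
H2bc6 (chr13:23621145-23621244, - strand): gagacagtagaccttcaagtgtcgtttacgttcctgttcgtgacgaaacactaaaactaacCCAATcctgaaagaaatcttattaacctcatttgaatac
H1f2 (chr13:23738688-23738787, + strand): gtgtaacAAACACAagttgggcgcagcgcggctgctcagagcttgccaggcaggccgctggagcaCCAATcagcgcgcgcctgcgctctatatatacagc
The capitals mark the H4 element and the TATA box in H4c11, the H4 element in H4c9, 2 CCAAT boxes in H2bc11, the octamer and a CCAAT box in H2bc4, a CCAAT box in H2bc6, and the H1 box and a CCAAT box in H1f2. In H4c11 the TATA box begins 32 bases and the H4 element 48 bases before the start, and in H4c9 the H4 element begins 46 bases before it. These windows follow the starts of the count tables, which may not be the starts used in mESCs, above all for the long gene models of H2bc4 (8710 bases) and H2bc6 (37455 bases).

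The genes were arranged in pairs as their promoters imply. Within 1 kb of each other and on opposite strands, 11 pairs of members start: 10 pairs of an H2A with an H2B gene, 176 to 306 bases apart, and H3c7 with H2bc9, 660 bases apart. The pair H2bc4 and H2ac6, 251 bases apart, had mean levels of 14.7 and 5.90 CPM over the 24 libraries. The pair H2bc11 and H2ac11, 270 bases apart, had 3.42 and 2.02 CPM.

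Pol II occupancy per length was high over most of these genes. Their mean level over the 24 libraries had a median of 5.32 CPM per kb over the 50 genes with bases of their own, against 0.821 CPM per kb for the 24176 other genes and 0.0962 CPM per kb for the 1378 olfactory receptor genes, which serve olfactory neurons. Other genes with 300 to 1000 bases of their own had a median of 0.262 CPM per kb. The median histone gene stood at the 92.6th percentile of all genes per kb. By family the median was 6.96 CPM per kb for H4, 5.80 for H1, 5.64 for H2B, 4.81 for H2A and 4.47 for H3.

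**Figure D1:**
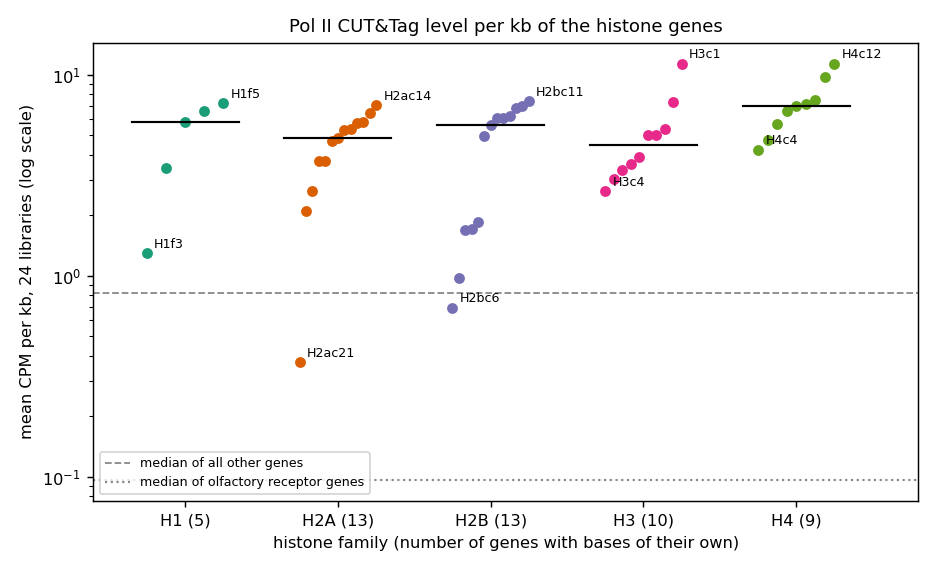
Mean CPM per kb (log scale) over 24 libraries for each histone gene with bases of its own, by family, with the family median as a bar and the highest and lowest gene named. Dashed and dotted lines are the medians of all other genes (0.821) and of olfactory receptor genes (0.0962); all points but H2ac21 and H2bc6 lie above the dashed line.

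The 3 highest genes per kb were H4c12 (11.4 CPM per kb), the core histone gene H3c1 (11.3) and H4c11 (9.74). H4c9 (7.47), H2bc11 (7.39), H3c11 (7.30), the linker histone gene H1f5 (7.19), H4c6 (7.14), H2ac14 (7.07), H2bc14 (7.01), H4c1 (6.96), H2bc15 (6.83), H4c8 (6.61), H1f2 (6.59) and H2ac4 (6.44) followed. The first 3 did not differ beyond their spread: over single libraries H4c12 covered 0.745 to 25.2, H3c1 3.59 to 22.4 and H4c11 2.01 to 33.3 CPM per kb. At the low end H2ac21 stayed under 1 CPM in every library, and H2bc1 and H2ac1, whose products belong to the testis, averaged 0.658 and 0.548 CPM.

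Without division by length the order is set by the gene models. H2bc6, whose model spans 37455 bases, averaged 25.6 ± 8.22 CPM (SD, n = 24 libraries) and took 12.0% of all histone reads, yet only 0.691 CPM per kb. It was followed by H2bc4 (14.7 ± 7.89 CPM), H1f2 (10.3 ± 4.56 CPM) and H1f3 (9.61 ± 5.20 CPM). H1f2 and H1f3 encode linker histones, which bind the DNA between nucleosomes. These 4 genes took 28.5% of the reads, so part of any sum over the members is signal spread over their long models. Of the 56 gene models, 42 are under 1 kb, and the median is 532 bases.

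The summed level of the 56 genes was 136 to 464 CPM, with a median of 187 CPM and a mean of 205 ± 64.1 CPM (SD, n = 24). The highest sum was the library that stood apart, and without it the highest was 282 CPM. Counting error alone gave a coefficient of variation of 2.87% to 6.82% per library. In 10 of the 12 groups, the library with the larger share of reads in other short genes also had the larger share in histone genes.

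**Figure D2:**
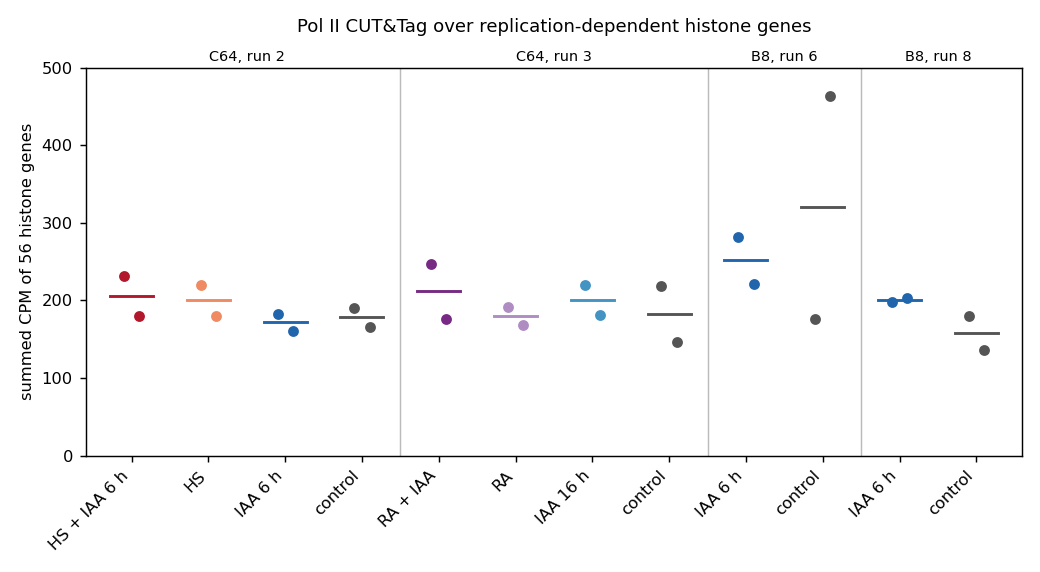
Summed CPM of the 56 histone genes (y axis) in each of 24 Pol II libraries (points), by group and run, with the group mean as a bar. The groups of C64 overlap in every contrast, between 146 and 247 CPM, and the second B8 control of run 6 lies at 464 CPM.

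The first question of the study was whether Pol II occupancy depends on TBP. After 6 h of IAA, the histone genes of C64 summed to 183 and 161 CPM, against 191 and 166 CPM in control. The means were 172 ± 15.9 and 178 ± 17.7 CPM (SD, n = 2 each), a ratio of 0.963, and the groups overlapped. Over the 50 genes with reads, 23 log2 fold changes were positive and 27 negative, with a median of -0.08, against 0.00 for all genes. Both libraries lay above both controls at 8 of 50 histone genes (12.5% of all genes) and below them at 5 of 50 (13.7% of all genes).

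No histone gene passed the test after 6 h of IAA in C64. edgeR's quasi-likelihood test reached 12 members with enough reads, and 0 had a Benjamini-Hochberg adjusted p under 0.05 over all genes, where 0.0433% of 16157 genes passed. None had an unadjusted p under 0.05. DESeq2 called 0 members in each of the 11 comparisons, and edgeR's likelihood-ratio test called 0 except where given. With set or replicate number as a block, edgeR called more genes in every C64 comparison, with the counts given at the end. The smallest p belonged to the linker histone gene H1f1, at 6.69 and 4.77 CPM with IAA against 3.63 and 2.58 CPM in control. Both IAA libraries exceeded both controls, and its log2 fold change was 0.90 ± 0.42 (SE), with an adjusted p of 1.0 by edgeR. The 95% interval of the change stayed within 2-fold for 6 of the 12 tested, and reached past it for the other 6. These intervals use normal quantiles and are narrower than the test allows, so fewer members may be held within 2-fold.

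After 16 h of IAA the sums were 220 and 181 CPM, against 219 and 146 CPM in control, with a ratio of 1.10. Of 49 genes with reads, 32 log2 fold changes were positive and 17 negative, with a median of 0.24 against 0.01 for all genes. Both libraries lay above both controls at 6 of 50 members (12.9% of all genes) and below them at 3 of 50 (13.3% of all genes). Among the families only the H3 sums did not overlap, with 38.6 ± 1.95 CPM with IAA and 28.5 ± 7.03 CPM in control (SD, n = 2 each). H3c1 stood at 10.6 and 11.9 CPM with IAA, against 6.87 and 5.78 CPM in control. Its log2 fold change was 0.85 ± 0.35 (SE), with an unadjusted p of 0.0411 and an adjusted p of 0.999 by edgeR. None of 13 tested members passed, as none (0.0%) of the 16349 genes did, and 1 member had an unadjusted p under 0.05. At that level 0.893% of all genes were higher and 1.06% lower. With replicate number as a block, 120 genes were called higher and 233 lower, and 0 members. H1f2 was at 13.5 and 10.3 CPM with IAA, against 8.59 and 6.45 CPM in control, and its log2 fold change was 0.68 ± 0.35 (SE).

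The second question was how occupancy answers heat shock, with and without TBP. Heat shock alone gave sums of 221 and 181 CPM, against 191 and 166 CPM in control, a ratio of 1.12. The 50 genes had 32 positive and 18 negative log2 fold changes, with a median of 0.25 against 0.01 for all genes. No member of 17 tested was called, where 3.02% of 16332 genes were called, 1.57% higher and 1.46% lower. One of the 17 had an unadjusted p under 0.05 by edgeR and was higher. At that level 7.97% of all genes were higher and 8.05% lower. H3c11, a core H3 gene, had the smallest p, at 5.23 and 6.6 CPM with HS against 2.14 and 3.01 CPM in control. Its log2 fold change was 1.23 ± 0.53 (SE), and its adjusted p was 0.253 by edgeR. Both HS libraries lay above both controls at 10 of 50 members (18.4% of all genes) and below them at 2 of 50 (21.1% of all genes). The stem cell markers summed to 2425 and 2298 CPM with HS against 1534 and 1300 CPM in control. Most of that was Esrrb and Tfcp2l1, and the median marker stood at 17.1 and 11.9 CPM with HS against 13.3 and 12.0 CPM. Of 9 markers tested, 1 was called higher, Tfcp2l1 (1.41 ± 0.25, SE, adjusted p 0.00681 by edgeR), and 0 lower. The part of the markers in the histone values was not tested.

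Heat shock after TBP depletion was set against TBP depletion alone. The sums were 231 and 180 CPM with HS and IAA, against 183 and 161 CPM with IAA alone, a ratio of 1.2. These overlapped, but without H2bc6 they did not, at a ratio of 1.24. Of 50 genes, 37 log2 fold changes were positive, with a median of 0.27 against 0.04 for all genes. Both libraries lay above both with IAA alone at 10 of 50 members (21.4% of all genes) and below them at 2 of 50 (20.3% of all genes). The H4 genes summed to 52.5 and 46.6 CPM with HS and IAA, against 42.4 and 30.4 CPM with IAA alone. Shares of reads in other short genes moved too, at 1.02% and 0.778% with HS and IAA against 0.881% and 0.773% with IAA alone. Their part in the sums was not tested.

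Both H4c9 and H2bc11 were higher in the combined treatment in every library without passing the test. H4c9 stood at 8.01 and 8.47 CPM with HS and IAA, against 3.76 and 2.60 CPM with IAA alone. Its log2 fold change was 1.38 ± 0.43 (SE), with an unadjusted p of 0.00639 and an adjusted p of 0.121 by edgeR. H2bc11, whose divergent partner H2ac11 lies between it and H4c9, stood at 4.77 and 7.2 CPM with HS and IAA, against 2.09 and 1.95 CPM with IAA alone. The log2 fold change of H2bc11 was 1.57 ± 0.50 (SE), with an adjusted p of 0.129. None of 17 members tested passed, beside 1.4% of 16486 genes called, 0.698% higher and 0.704% lower. Of the 17, 3 had an unadjusted p under 0.05 by edgeR, all higher. At that level 7.65% of all genes were higher and 8.95% lower. The third was H1f5, at 5.91 and 6.99 CPM with HS and IAA against 3.76 and 2.82 CPM with IAA alone. The likelihood-ratio test called 2 members, H4c9 and H2bc11, with adjusted p-values of 0.0353 and 0.0384. The share of all genes called by that test is not given here, so the 2 have no background beside them. With library set as a block, edgeR's quasi-likelihood test called 1 member, H4c9 (1.39, adjusted p 0.0359). The set letters are not shown to pair libraries.

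Set the other way, IAA under heat shock gave sums of 231 and 180 CPM with HS and IAA, against 221 and 181 CPM with HS alone, a ratio of 1.03. No member of 22 tested passed, as none (0.0%) of 16628 genes did, and 1 had an unadjusted p under 0.05. That one was H4c9, at 8.01 and 8.47 CPM against 4.42 and 3.41 CPM, with a log2 fold change of 1.09 ± 0.46 (SE). At that level of p 0.463% of all genes were higher and 0.499% lower. Whether the IAA effect differed between heat shock and control was tested in 1 joint fit, where H4c9 had a difference of 1.27 ± 0.64 (SE) on the log2 scale and an adjusted p of 1.0. These comparisons share libraries, so H4c9 enters each through the same values with HS and IAA.

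Retinoic acid starts differentiation, and the 10 stem cell markers summed to 510 and 753 CPM with RA against 1152 and 1725 CPM in control. The histone genes summed to 192 and 169 CPM with RA, against 219 and 146 CPM in control, a ratio of 0.988. Among the families only the H2B sums did not overlap, at 75.1 and 70.9 CPM with RA against 68.3 and 60.5 CPM in control. Of that sum, H2bc4 held 24.5 and 27.0 CPM with RA, against 13.3 and 20.7 CPM in control. The log2 fold change of H2bc4 was 0.61 ± 0.31 (SE), with an adjusted p of 0.872 by edgeR. None of 11 tested members passed or had an unadjusted p under 0.05, and 0.0183% of 16350 genes passed, 0.0122% higher and 0.00612% lower. With replicate number as a block, 777 genes were called higher and 1086 lower, and 0 members. Of 49 genes, 19 log2 fold changes were positive and 30 negative. Both RA libraries lay above both controls at 9 of 50 members (15.2% of all genes) and below them at 7 of 50 (15.3% of all genes).

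RA with IAA gave 247 and 176 CPM, against 220 and 181 CPM with IAA alone for 16 h and 192 and 169 CPM with RA alone. The ratios were 1.06 and 1.17. IAA under RA had 37 of 49 positive log2 fold changes, with a median of 0.36 against 0.02 for all genes. In 12 of 50 members both libraries with RA and IAA lay above both with RA alone, beside 11% of all genes. The first library with RA and IAA, which holds the 247 CPM, had 0.956% of its reads in other short genes, the second 0.784%, against 0.822% and 0.762% with RA alone. How far that share bears on the histone sums was not tested. No member passed in either comparison (12 and 16 tested), none had an unadjusted p under 0.05, and 0.0% of all genes passed. H1f2 had the smallest p for IAA under RA, at 13.7 and 12.6 CPM with RA and IAA against 10.9 and 5.26 CPM with RA alone, with a log2 fold change of 0.72 ± 0.43 (SE).

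**Figure D3:**
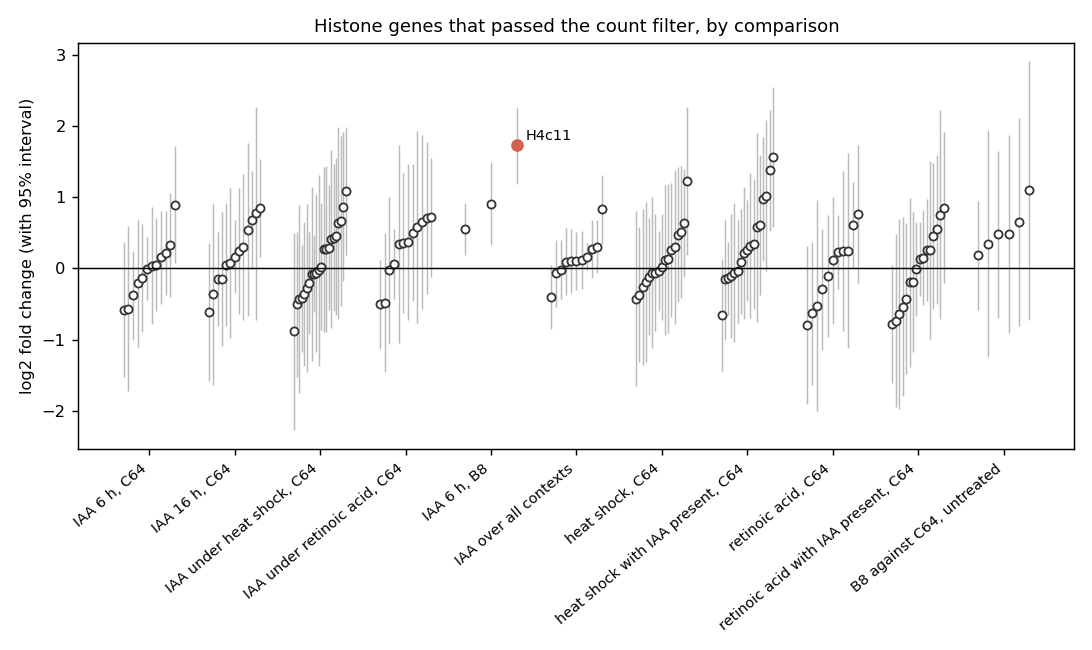
Log2 fold changes (points) with 95% intervals (lines, from normal quantiles) of the histone genes that passed the count filter. Genes are sorted within each of 11 comparisons. The filled point is H4c11 in B8, the 1 member with an adjusted p under 0.05, and most other intervals cross 0.

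In B8, which lacks TRF2, IAA was followed by a higher level of 1 histone gene, H4c11. H4c11 (chr13:21735064-21735837, + strand, 774 bases, sharing no base with another gene) encodes histone H4, the partner of H3 in the nucleosome core. Its level was 25.7 and 18.9 CPM with IAA in run 6 and 14.4 and 13.3 CPM with IAA in run 8, against 5.73 and 6.88 CPM in control of run 6 and 4.63 and 4.12 CPM in control of run 8. Every IAA library lay above every control, in each run. In reads these were 31, 23, 33 and 31 with IAA and 7, 7, 10 and 9 in control.

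The log2 fold change of H4c11 was 1.73 ± 0.28 (SE, 95% interval 1.19 to 2.27), with an adjusted p of 0.00304 by edgeR's quasi-likelihood test with run as a term. It was 1.76 in run 6 alone and 1.70 in run 8 alone, with adjusted p-values of 0.281 and 0.00182. Of 3 members tested in B8, 1 was called higher and 0 lower, where 5.68% of 13675 genes were called, 2.39% higher and 3.29% lower. A gene enters the test only with about 10.8 CPM in enough libraries, and H4c11 passed this filter through its 4 IAA libraries and 0 controls, so it could hardly enter without differing. With no filter it was still called, with an adjusted p of 8.59e-05, as 1 of 49 members with reads. Of these 49, 21 log2 fold changes were positive and 28 negative, with a median of -0.05 against -0.04 for all genes. These signs and medians include the library that stood apart and were not taken without it. DESeq2 gave H4c11 no adjusted p and called 0 members.

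The other histone genes beside H4c11 had smaller differences in reads, which were not tested. Within 20 kb, H4c12, on the opposite strand, had 27 reads over the 4 IAA libraries and 32 over the 4 controls, and H2bc14 had 34 and 20. H2bc13 had 20 and 16 reads, H2ac14 17 and 9, H3c10 10 and 13, H2bc15 12 and 18, and H4c11 itself 118 and 33. H4c11 was the 1 member of 50 (2%) with every B8 IAA library above every control, beside 2.81% of all genes. In 1 member of 50 every IAA library lay below every control, beside 1.85% of all genes. Without the second control of run 6, 3 of 50 members lay above every control, beside 4.83% of all genes. In that setting 1 of 50 lay below, beside 4.66% of all genes. For H4c11 these are the same values as in the test.

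**Figure D4:**
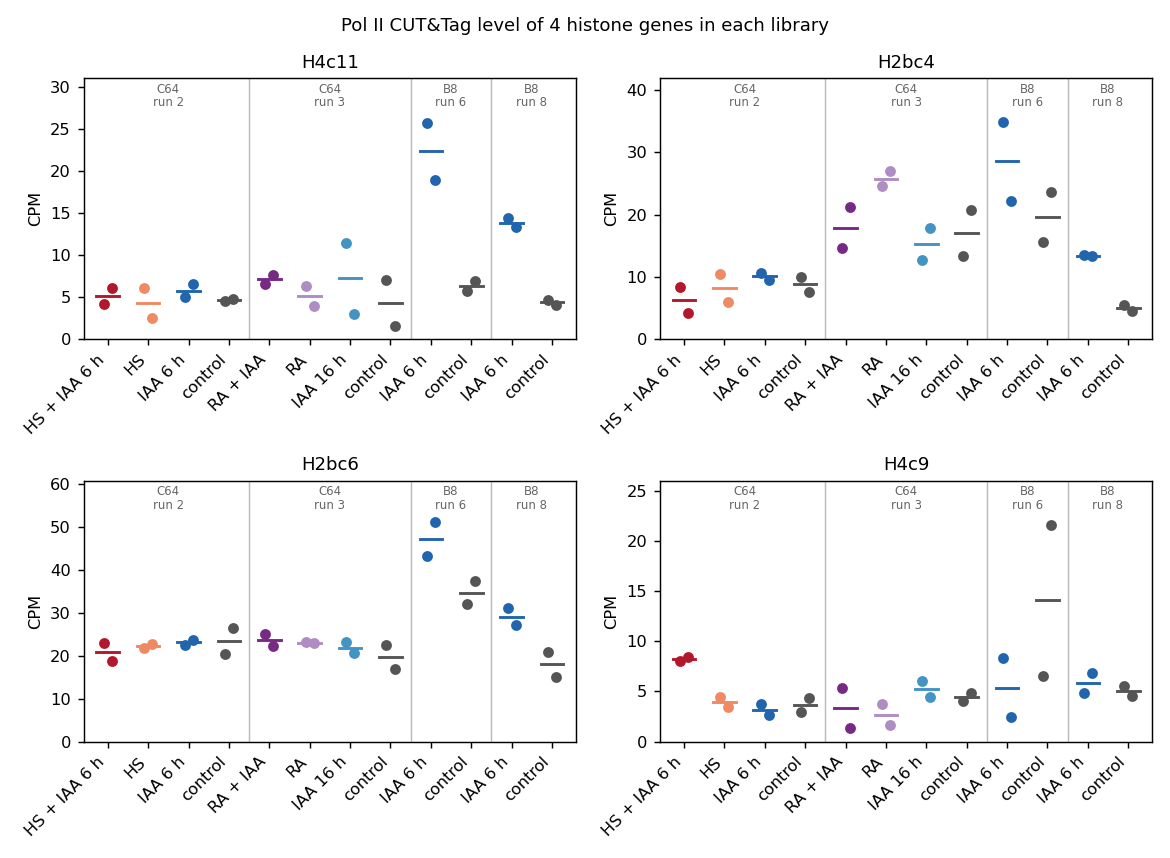
CPM (y axis) of H4c11, H2bc4, H2bc6 and H4c9 in each of 24 libraries (points), by group and run, with the group mean as a bar. H4c11 in B8 reaches 13.3 to 25.7 CPM with IAA against 4.12 to 6.88 CPM in control, and H4c9 peaks at 21.6 CPM in the second B8 control of run 6.

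In C64 the same gene did not pass. After 6 h of IAA H4c11 was at 5.01 and 6.51 CPM, against 4.49 and 4.73 CPM in control, with a log2 fold change of 0.33 ± 0.37 (SE). At 16 h it was at 11.5 and 3.05 CPM with IAA, against 7.09 and 1.56 CPM in control, and the change of 0.77 ± 0.76 (SE) was -0.48 without the first IAA library. Under RA it was at 6.53 and 7.67 CPM with IAA, against 6.29 and 3.89 CPM without (0.50 ± 0.49), and under heat shock at 4.20 and 6.14 CPM with IAA, against 6.03 and 2.55 CPM without (0.27 ± 0.59). The difference between B8 and C64 in the 6 h effect was 1.40 ± 0.48 (SE) on the log2 scale in a joint fit, with an unadjusted p of 0.00847 and an adjusted p of 0.488, where 0.0913% of 15338 genes passed, 0.0717% with the higher effect in B8 and 0.0196% with the lower. The IAA effect on H4c11 is therefore not shown to differ between the lines.

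H2bc4 and H2bc6, the other members tested in B8, depended on the library that stood apart. H2bc4 reached the count cutoff in 4 IAA and 2 control libraries, and H2bc6 in 4 and 4. H2bc4 was at 34.9, 22.2, 13.5 and 13.3 CPM with IAA, against 15.6, 23.6, 5.56 and 4.58 CPM in control. Within run 8 both IAA libraries lay above both controls, and in run 6 the ranges overlapped. Its log2 fold change was 0.91 ± 0.30 (SE), with an adjusted p of 0.0955, and was 1.19 with an adjusted p of 0.00491 without the second control of run 6. H2bc6 was at 43.2, 51.0, 31 and 27.1 CPM with IAA, against 31.9, 37.4, 20.8 and 15.1 CPM in control, and every IAA library lay above every control of its own run. The log2 fold change of H2bc6 was 0.56 ± 0.19 (SE), with an adjusted p of 0.108, and 0.66 with an adjusted p of 0.0166 without that library. Without it, 3 members were called in B8, and the share of all genes called in that fit is not given here.

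The sum over the 56 genes in B8 turned on that library as well. It was 282, 221, 197 and 203 CPM with IAA, against 176, 464, 181 and 136 CPM in control, a ratio of 0.945. Without the second control of run 6 the ratio was 1.38 and the groups did not overlap. Within run 8 the ratio was 1.26, at 197 and 203 CPM with IAA against 181 and 136 CPM in control, and within run 6 it was 0.787 with overlap. The high control also carried H1f5 at 33.4, H1f3 at 30.5, H1f4 at 22.6 and H4c9 at 21.6 CPM, against 2.29 to 3.27, 4.12 to 12.0, 2.31 to 9.01 and 4.58 to 6.55 CPM in the other B8 controls. In such bulk libraries, fewer cells with Pol II on these genes and less Pol II per cell cannot be told apart.

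Control B8 was compared with control C64 of run 2, a contrast in which line and run cannot be told apart. The sums were 176, 464, 181 and 136 CPM in B8, against 191 and 166 CPM in C64, a ratio of 1.34, or 0.920 without the library that stood apart. None of 6 members tested passed or had an unadjusted p under 0.05, and 0.0% of 16316 genes passed. H1f4, a linker histone gene that shares bases with H2bc6, had a log2 fold change of 1.10 ± 0.93 (SE) that was -0.02 without that library. H4c11 stood at 4.12 to 6.88 CPM in control B8 and at 4.49 and 4.73 CPM in control C64.

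One IAA effect was then estimated over the 6 contexts (C64 of run 2, heat shock, C64 of run 3, retinoic acid, and B8 of runs 6 and 8), with context as a term, which gave the smallest errors. For 10 of the 11 members tested the 95% interval, from normal quantiles, lay within 2-fold. This is relative to all genes, since TMM scaling removes a change that all genes share. H4c11 was the exception, with 0.83 ± 0.25 (SE), an unadjusted p of 0.00225 and an adjusted p of 0.119 by edgeR's quasi-likelihood test. The likelihood-ratio test called H4c11, and the share of all genes it called is not given here. No member passed, where 0.88% of 15918 genes were called, 0.107% higher and 0.773% lower. H4c11 was the 1 member with an unadjusted p under 0.05 by edgeR. At that level 4.3% of all genes were higher and 6.6% lower. Without the B8 libraries the change of H4c11 was 0.45, with an adjusted p of 0.993. H1f3 had -0.40 ± 0.23 and H1f2 0.31 ± 0.19 (SE), neither past the threshold.

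Few genes that serve the histone genes passed the test. Among 21 tested factors of histone gene transcription and mRNA processing, from NPAT to the U7 snRNP, 1 rose and 1 fell with HS, where 1.57% of all genes rose and 1.46% fell. Coil, which encodes coilin of Cajal and histone locus bodies, rose by a log2 fold change of 2.06 ± 0.26 (SE, adjusted p 0.000725), and Pou2f1, which encodes OCT1 of the octamer, fell by 0.95 ± 0.25 (adjusted p 0.0488). With IAA present Coil alone rose, by 2.10 ± 0.30 (adjusted p 0.00747), where 0.698% of all genes rose. In the other 9 comparisons 0 of these factors passed.

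S phase genes rose in part with heat shock. Of 25 tested, 7 rose and 0 fell with HS, where 1.57% of all genes rose: Mcm2, Mcm3, Mcm4, Mcm5 and Mcm6 of the replicative helicase, Orc1 of the origin complex and Cdc6, which loads the helicase. Mcm3 had the largest change, 1.56 ± 0.25 (SE, adjusted p 0.00304). With IAA present 3 of 25 rose (Mcm3, Mcm5 and Orc1), where 0.698% of all genes rose. Of 18 genes of G2 and M phase, the cyclin gene Ccnb1 fell with HS (-1.61 ± 0.23, adjusted p 0.00149), where 1.46% of all genes fell. Ccnb1 and Mki67 fell with IAA present, where 0.704% of all genes fell. In B8, Mcm3 (-0.59 ± 0.16, adjusted p 0.0429) and Top2a (-0.48 ± 0.11, adjusted p 0.0188) fell with IAA, 1 of 25 and 1 of 18, where 3.29% of all genes fell, and 0 genes of either list rose. Over all contexts Rfc4 and Top2a fell, where 0.773% of all genes fell. In the other 7 comparisons 0 genes of either list passed.

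The replication-independent histone genes gave 0 calls in any of the 11 comparisons, with 8 or 9 tested in each. Their mean levels ran from 1.09 CPM per kb for Macroh2a2 and 1.30 for H1f0 to 9.96 for H3f3a and 12.8 for H2ax, against 0.370 to 11.4 CPM per kb for the replication-dependent genes.

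The histone genes are rich in TATA promoters by the list the study deposited. On that list stand 42 of 56 members (75%), among them all 10 H4 genes, and 13 stand on the TATA-less list, against 26.0% and 71.5% of 20247 protein-coding genes. The list and the exact letters differ. TATAAA was found before 29 of 56 members and 4 of 10 H4 genes. H3c1 and H1f1, on the TATA-less list, carry it 31 bases before the start. The split below follows the list, not the letters. After 6 h of IAA in C64, the 36 TATA members with reads had 18 positive log2 fold changes and a median of 0.01, and the 13 TATA-less members had 4 positive and a median of -0.15. In B8 the 35 TATA members had 11 positive and a median of -0.09, and the 13 TATA-less members had 9 positive and a median of 0.02. The B8 values include the library that stood apart and were not taken without it.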

How the data were processed

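The authors aligned Pol II CUT&Tag read pairs to mm10 (GRCm38) with Bowtie2, kept PCR duplicates, subsampled each run to a fixed read number and counted pairs over whole genes with featureCounts, without strand. The deposited tables hold raw counts per gene. FastQC, deepTools and bedtools also stand in the submitters' notes. Columns were matched to samples by name; run 2 and run 8 names carry no number that matches the titles' replicates, so their libraries form sets a and b. Columns of one library in 2 tables (14 pairs) were identical and used once. The spike-in factors were not used here, and other antibodies' samples were not analysed here.

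CPM were computed over library sizes scaled by TMM factors. Each comparison was fitted on the whole table by edgeR 4.0.16 (R 4.3.3; filterByExpr, minimum count 20, quasi-likelihood F test, Benjamini-Hochberg threshold 0.05). The study names glmFit, removed pseudogenes and names no run term, whereas here the tables were fitted as deposited and B8 with run as a term. Standard errors were back-calculated from the log2 fold change and the test statistic. Intervals use normal quantiles, and with so few libraries they are narrower than the F test allows. For IAA 6 h in C64, the interval of H1f1 was 0.0800 to 1.71, with an unadjusted p of 0.0565 by the F test. For RA, that of H2bc4 was 0.00729 to 1.21, with an unadjusted p of 0.0851 by the F test. Differences between contexts were fitted jointly and added after seeing the data. Medians and signs over members with reads come from the same fit with no filter. DESeq2 1.42.0, a likelihood-ratio test, other scalings and filters, a replicate block and leaving out each library were tried. Sums and levels carry no test. Fits were tested on simulated data.

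The members and gene lists were chosen with earlier results of these data known. Named are members past the threshold, the 15 highest per kb, the 3 smallest p-values in each direction if the log2 fold change is at least 0.2, members under 1 CPM everywhere, divergent pairs within 1 kb, and up to 6 listed genes past the threshold. H4c11 was followed in every IAA comparison, and the neighbours and replication-independent genes were named after their values were seen. Read numbers limit the precision: intervals cover the spread between libraries, and reads with duplicates kept are not independent molecules.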

Additional observations from a re-analysis of the deposited data

Results flagged for a closer look

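Of the levels measured, 3 were far from the other libraries of their group, all in the second B8 control library of run 6. The summed CPM of all histone genes was 464.0 there, that of the H1 genes 113.1 and that of the H3 genes 77.7, each farther from the other B8 controls than Dixon's 95% value for 4 samples allows. The other 3 B8 controls summed to 136 to 181 CPM over all members, 19.7 to 32.9 CPM over H1 and 22.4 to 27.8 CPM over H3. The 3 come from 1 library and the first sum holds the other sums, so they are not independent. Of 18 series measured, no other exceeded that value, and chance flags about 1 in 20 groups.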

How the results depend on the processing

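In the 11 comparisons and the 3 differences between contexts, the count of members past the threshold changed under few settings. For heat shock with IAA present the 0 became 2 with the likelihood-ratio test and 1 with the replicate block. For IAA over all contexts it became 1 with either. For IAA in B8 the 1 became 2 with library totals or the likelihood-ratio test, 0 with DESeq2 or run 6 alone, 3 with run 8 alone, and 1 to 3 when a library was left out. Except for the block, the share of all genes called under these settings is not given. These counts therefore have no background beside them. H2bc4 in B8 passed with the likelihood-ratio test (0.91, adjusted p 0.0421) and in run 8 alone (1.44), and H2bc6 with library totals (0.67) and in run 8 alone (0.73). H4c11 kept its call in B8 without any 1 library (1.63 to 1.81). The leave-out and single-run fits in B8 kept the genes that had passed the filter with all libraries. H4c11 had passed it through its IAA libraries alone, so these fits do not repeat that selection. Over all contexts it passed with the likelihood-ratio test (adjusted p 0.0411). Run 6 alone and run 8 alone each have fewer libraries than the full fit, and the causes were not tested.

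Leaving out a library turned the sign of changes that had not passed: H2ac6 (-2.20 to 0.17) at 6 h and H1f1 (-1.07 to 1.09) and H4c11 (-0.48 to 2.22) at 16 h of IAA, H3c7 (-1.63 to 0.17, also 0.07) and H4c3 (-0.97 to 0.15) with HS, H1f1 (-0.24 to 1.23) and H4c11 (-0.22 to 1.05) for IAA under heat shock, H1f1 (-1.26 to 0.94) with RA, H2bc11 (-0.83 to 1.47) for RA with IAA present, and H1f4 (-0.022 to 1.43) and H1f2 (-0.046 to 0.79) in control B8.

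With set or replicate number as a block, residuals of same-numbered libraries correlated at 0.117 to 0.544 in run 2, 0.459 to 0.65 in run 3, and -0.0363 and 0.0137 in B8, but each comparison has only 2 pairs. The block called H4c9 for heat shock with IAA present (1.39, adjusted p 0.0359) and H4c11 over all contexts (0.83, adjusted p 0.0154). Over all genes the block called 628 higher and 981 lower for HS with IAA present (115 and 116 without it), 650 and 723 for HS (256 and 238), 777 and 1086 for RA (2 and 1), 18 and 175 for 6 h of IAA (0 and 7), 120 and 233 for 16 h (0 and 0), 123 and 175 for RA with IAA present, 15 and 93 for IAA under HS and 66 and 105 for IAA under RA (0 and 0 each), 194 and 255 in B8 (327 and 450), and 120 and 520 over all contexts (17 and 123). For the B8 and C64 controls no block could be fitted. The mean summed level was 194 to 208 CPM without any 1 library. With a median of 10 reads per gene and library, most members did not reach the test in any comparison.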
